A study of Homo sapiens with 18 samples.

Results

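The comparison of HEK293 cells 24 h after transfection with an expression vector for RHOXF2 against cells that received the control vector rests on 6 of the study's 18 arrays. These are the 3 arrays titled for RHOXF2 and the 3 titled for control at 24 h, taken by their titles and paired by replicate number. All 21214 transcript clusters that carry a gene symbol were tested, out of 33297 on the array. The study transfected HEK293, a line derived from human embryonic kidney, with RHOXF1, with RHOXF2 or with the control vector, and took RNA after 24 h or 48 h, with 3 arrays in each of 6 groups. Its comparisons ask which transcripts differ once either RHOX gene has been introduced.

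Both groups compared here are HEK293 cells. The RHOXF2 group received an OriGene clone of wild type RHOXF2, and the control group an empty control vector, for which the treatment text names only the GFP plasmid pCMV6-AC-GFP. Whether the RHOX clones also carry GFP is not stated. Lipofectamine 2000 was used in every group, the 24 h RHOXF1 group included, so every array comes from transfected cells. The transfection was transient, in 1 cell line, and the share of cells that took up plasmid was not measured by the arrays. Each group is called a set of biological triplicates, with no word on what a replicate number marks. The 9 arrays of 24 h carry array numbers 1 to 9, with 3 consecutive array numbers for each replicate number. The samples are described as run on Human Gene 1.0 ST arrays, whereas the text of the series names an exon array.

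RHOXF1, RHOXF2 and the near-identical RHOXF2B are X-linked homeobox genes of the reproductive homeobox family, whose members are mainly expressed in germ cells and reproductive tissues. Homeodomain proteins bind DNA and regulate transcription. Among the genes measured here, those of the HSP70 chaperone system help proteins fold. Its inducible members are switched on by the transcription factor HSF1 when unfolded protein accumulates. ATF4 is the transcription factor of the integrated stress response, which raises genes of amino acid uptake, amino acid synthesis and tRNA charging.

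Values are log2 RMA levels, so a difference of 1 is a doubling. Over all clusters with a gene symbol, the 3 RHOXF2 arrays correlated with each other at 0.9956 to 0.9963 and the 3 control arrays at 0.994 to 0.9959. Of 14 genes listed as expressed by HEK293, 6 lay above the upper quartile of the array on all 6 arrays (CDH2, EYA1, KRT18, NEFL, NEFM and VIM) and 3 lay below the median. Of 30 markers of blood, liver, fibroblast, endothelial, muscle, epithelial and glial cells, none lay above the upper quartile on all 6 arrays, 23 lay below the median and 6 below the lower quartile. Their mean level ran from 5.52 to 5.64 on the RHOXF2 arrays and from 5.58 to 5.77 on the control arrays.

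The transfected gene itself was the main difference at 24 h, and almost nothing else passed the test. RHOXF2 and RHOXF2B share probes and appear as a pair of clusters with identical values, which cannot be told apart. They read 12.78, 12.83 and 12.87 on the RHOXF2 arrays, and 7.12, 6.77 and 6.54 on the control arrays of replicate numbers 1, 2 and 3. All RHOXF2 arrays were far above every control array, and they varied less among themselves (SD 0.05) than the control arrays did (SD 0.30). The log2 difference was 6.01 (SE 0.16, 95% interval 5.66 to 6.37, n = 3 against 3), or 64.6-fold, with a limma adjusted p of 6.91e-09. In this bulk RNA, a larger share of transfected cells and more transcript per transfected cell cannot be told apart. The RHOXF1 arrays of 24 h read 7.14, 6.30 and 6.15 for the same clusters, which overlaps with control.

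RHOXF1 was the other gene that rose. It read 6.94, 7.61 and 7.89 on the RHOXF2 arrays and 6.13, 6.32 and 6.56 on the control arrays. Every RHOXF2 array was above every control array, and the array of replicate number 1 was the lowest of its group on both sides. The 3 same-number differences were 0.80, 1.29 and 1.33, and the log2 difference was 1.14 (SE 0.12, n = 3 against 3), or 2.21-fold, with a limma adjusted p of 0.00937. RHOXF1 arrays themselves read 12.13, 12.29 and 12.32, so the level on the RHOXF2 arrays stayed well below that of cells given RHOXF1. The call depends on the replicate block: without it the limma adjusted p was 0.262. It was also lost without RHOXF2 replicate 2 (1.08, adjusted p 0.0585), without control replicate 1 (1.21, 0.0984), 2 (1.09, 0.18) or 3 (1.13, 0.0641), and without all arrays of number 2 (1.07, 0.154).

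**Figure D1:**
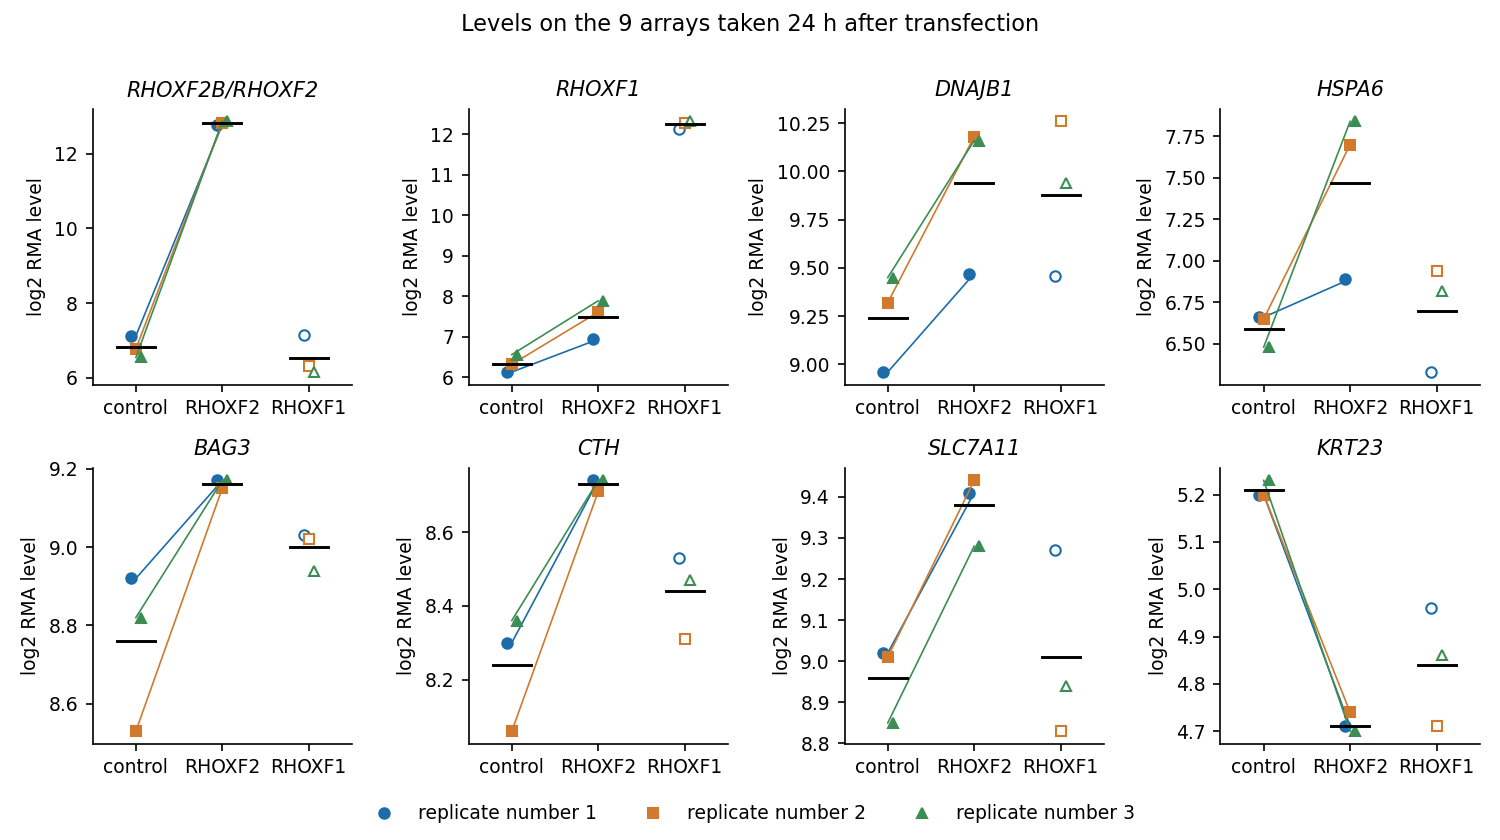
Log2 RMA levels (vertical axes, one scale per gene) of 8 genes on the 9 arrays of 24 h, by group; points are arrays, black bars are group means, colours and shapes mark replicate numbers, and lines join control and RHOXF2 arrays of one number. RHOXF2 and RHOXF1 lie higher on all 3 RHOXF2 arrays and passed the test, whereas the other 6 genes lie outside the control range on all 3 RHOXF2 arrays without passing it.

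These 3 clusters, the RHOXF2 pair and RHOXF1, were all that passed an adjusted p of 0.05 among the 21214 tested (0.0141%), and no cluster fell. At an unadjusted p under 0.05, 967 clusters were higher (4.56%) and 1873 lower (8.83%). The median difference over all named clusters was -0.003, and 48.8% of them were above 0. Every RHOXF2 array was above every control array in 3.89% of clusters and below every control array in 7.18%.

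The sign of small differences moved with the level of the cluster. In the 5 bins of mean level from dim to bright, the median differences were -0.061, -0.085, 0.001, 0.042 and 0.034. Differences were below 0 in 70.6% and 71.9% of clusters of the 2 dimmest bins, and in 32.0% and 31.9% of those of the 2 brightest. The pattern was steepest in the pair of arrays with replicate number 1, whose medians ran from -0.136 in the second bin to 0.074 in the fourth. Control replicate 1 had quartiles of 4.99 and 8.71, beside 4.92 and 8.77 for RHOXF2 replicate 1 and 4.92 and 8.78 for RHOXF1 replicate 1. Between RHOXF2 and RHOXF1 arrays the pattern was much weaker, with bin medians of -0.019, -0.03, -0.007, 0.006 and 0.003. Where the pattern comes from was not tested. After cyclic loess normalization of the deposited values the 5 medians lay between -0.016 and 0.015, and 1117 clusters were higher and 1032 lower at an unadjusted p under 0.05. The share of higher clusters among these was then 52.0%, compared with 34.0% in the values as deposited. List medians below are from the values as deposited, and many of them are given beside their value after cyclic loess.

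**Figure D2:**
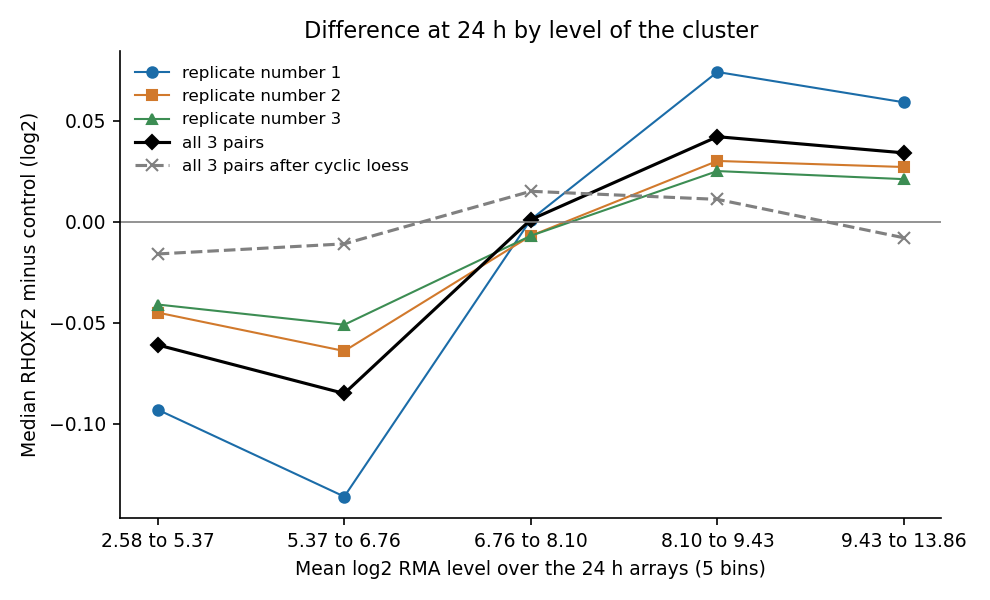
Median log2 difference between RHOXF2 and control arrays at 24 h (vertical axis) in 5 bins of mean log2 RMA level (horizontal axis), for each same-number pair, for all 3 pairs and after cyclic loess. All 3 pairs are below 0 in the 2 dimmest bins and above 0 in the 2 brightest, and the pair of number 1 has the widest range, from -0.136 to 0.074.

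Among the chaperone lists, inducible HSP70 had the highest median, and HSPA6 and DNAJB1 were the members with the highest values. No chaperone passed the test at 24 h. Of 53 members measured in 6 lists (inducible HSP70, constitutive HSP70 and HSP110, HSP40, HSP90 with its co-chaperones, chaperonins, and small heat shock proteins with BAG proteins), 39 were higher and 14 lower. The share above 0, 73.6%, lay near the 68.1% of all clusters in the brightest level bin, where the median level of these members fell (9.46). At an unadjusted p under 0.05, 10 were higher (18.9%) and 1 lower (1.89%), beside 4.56% and 8.83% of all named clusters and 4.24% and 0.259% of that bin. The median was 0.07 and became 0.05 after cyclic loess, when 34 were above 0. All 4 members of the list called inducible HSP70 were above 0, with a median of 0.40 (0.42 after cyclic loess). The pair medians were 0.22, 0.93 and 0.19, so the pair of replicate number 2 was the highest. The list includes HSPA1L, and HSPA6 enters both alone and in a cluster shared with HSPA7. Whether each member is inducible in these cells was not tested.

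HSPA6, an HSP70 gene that is nearly silent in unstressed cells, read 6.89, 7.70 and 7.84 on the RHOXF2 arrays and 6.66, 6.65 and 6.48 on the control arrays. The groups did not overlap, but RHOXF2 replicate 1 was only 0.23 above its control, against 1.05 and 1.36 in the other 2 pairs. The log2 difference was 0.88 (SE 0.16), with a limma adjusted p of 0.172. It passed without control replicate 1 (1.15, limma adjusted p 0.0225) and without all arrays of number 1 (1.20, 0.011). HSPA1A and HSPA1B, the main stress-inducible HSP70 pair, share several clusters, of which only the brightest is given. This cluster read 13.31, 13.41 and 13.52 against 13.10, 13.11 and 13.20, near the highest mean level of any named cluster (13.86). Its groups did not overlap either, and the difference was 0.28 (SE 0.07, limma adjusted p 0.219). HSPA1L, a related gene of the same locus, differed by 0.53 (SE 0.14) and the cluster shared by HSPA7 and HSPA6 by 0.27 (SE 0.17). In that shared cluster the 3 pairs gave 0.00, 0.91 and -0.08, so 1 pair accounts for its value.

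DNAJB1, the HSP40 protein that hands substrates to HSP70, had the smallest p of any cluster that did not pass. It read 9.47, 10.18 and 10.16 on the RHOXF2 arrays and 8.96, 9.32 and 9.45 on the control arrays. All RHOXF2 arrays were above all control arrays, although RHOXF2 replicate 1 exceeded control replicate 3 by little. The difference was 0.69 (SE 0.10, 95% interval 0.48 to 0.90), with a limma adjusted p of 0.0876. It passed when the variance prior was allowed to follow the level (limma adjusted p 0.022), with array weights (0.049) and among clusters above the median level. For the array weights, limma reported that the convergence tolerance could not be reached. Of 10 HSP40 members, 6 were higher and 4 lower, with a median of 0.06. DNAJB4, of the same family, overlapped between the groups and differed by 0.20 (SE 0.09). DNAJA4, another HSP40 protein, was the 1 chaperone with an unadjusted p under 0.05 in the lower direction: it read 5.27, 5.38 and 5.03 against 5.54, 5.56 and 5.40, a difference of -0.27.

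The co-chaperone BAG3, which couples HSP70 to autophagy, read 9.17, 9.15 and 9.17 against 8.92, 8.53 and 8.82, so the RHOXF2 arrays were close together and above all controls (0.41, SE 0.09, limma adjusted p 0.219). HSPB1, a small heat shock protein, overlapped between the groups and differed by 0.32 (SE 0.08), and HSPB7, of the same family, by -0.14 (SE 0.08). Of 13 small heat shock and BAG members, 8 were higher, with a median of 0.02 (0.00 after cyclic loess). HSPH1, the HSP110 exchange factor of HSP70, differed by 0.22 (SE 0.08), HSPA13 by 0.10 (SE 0.07) and the constitutive HSPA8 by 0.08 (SE 0.07). All 7 constitutive HSP70 and HSP110 members were above 0, with a median of 0.07, and 5 of the 7 were above 0 after cyclic loess. HSP90 and its co-chaperones had 7 of 9 members above 0 (median 0.10), and the chaperonins 7 of 10 (median 0.04, 0.00 after cyclic loess). The members of smallest p in these lists were FKBP4 (0.13, SE 0.08) and STIP1 (0.10, SE 0.07), which bind HSP90, and the chaperonin subunits CCT4 (0.10, SE 0.07) and HSPE1 (0.11, SE 0.09). Among the heat shock factors themselves, HSF1 differed by 0.13 (SE 0.07), HSF4 by -0.18 (SE 0.08) and HSF5 by -0.08 (SE 0.09). Other genes bound by HSF1 gave 7 of 9 above 0 (median 0.04), with the collagen chaperone SERPINH1 at 0.36 (SE 0.11), ZFAND2A at 0.18 (SE 0.08) and DEDD2 at 0.16 (SE 0.07).

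The 250 bases upstream of each start in RefSeq (GRCh38.p14) were searched for the heat shock element. It was written as 3 units, GAA, then TTC, then GAA, each separated by any 2 bases, and was searched on both strands. It was found in 152 of the 27305 genes of the table (0.557%), in 7 of the 48 chaperone genes with a window (CHORDC1, DNAJB6, HSP90AA1, HSP90AB1, HSPA6, HSPA8 and HSPD1) and in 1 of 7 other HSF1 targets (SERPINH1). 6 chaperone genes had no window, and a match is a description of the letters only. The motif, in capitals below, is on the opposite strand in all 3 stretches, so it reads TTC, then GAA, then TTC. The stretches end 1 base before the start. They are shown because HSPA6 and SERPINH1 carry the motif with differences of 0.88 and 0.36 while HSPA8 carries it with 0.08. They lie at chr1:161524420-161524539 (plus strand), chr11:75562133-75562252 (plus strand) and chr11:123062137-123062256 (minus strand).
HSPA6: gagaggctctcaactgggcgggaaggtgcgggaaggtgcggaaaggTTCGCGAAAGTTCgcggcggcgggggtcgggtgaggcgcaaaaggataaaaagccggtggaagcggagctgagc
SERPINH1: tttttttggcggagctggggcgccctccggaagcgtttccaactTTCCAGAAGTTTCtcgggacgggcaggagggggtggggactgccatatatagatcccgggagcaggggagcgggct
HSPA8: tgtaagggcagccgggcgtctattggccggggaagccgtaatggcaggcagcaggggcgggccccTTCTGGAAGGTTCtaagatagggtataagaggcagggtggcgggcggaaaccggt
The motif starts 74, 76 and 55 bases upstream in the 3 genes. None of the windows of DNAJB1 holds these letters.

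Genes driven by ATF4 lay above control almost without exception, by small amounts. Of 25 members, 24 were higher, 16 of them in all 3 same-number pairs, and 8 had an unadjusted p under 0.05 in the higher direction and 0 in the lower. Over all named clusters, 48.8% were higher, 14.8% were higher in all 3 pairs and 4.56% were higher at that p. No member passed the limma test after adjustment. The median was 0.16, with pair medians of 0.07, 0.23 and 0.13. It was 0.14 after cyclic loess, with 23 above 0. Their median level was 8.75, in the fourth level bin, where 68.0% of clusters were higher and 6.86% were higher at an unadjusted p under 0.05.

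SLC7A11, the cystine transporter, had the smallest p of the list. It read 9.41, 9.44 and 9.28 on the RHOXF2 arrays and 9.02, 9.01 and 8.85 on the control arrays, with no overlap and pair differences of 0.39, 0.43 and 0.43. The log2 difference was 0.42 (SE 0.09, limma adjusted p 0.219). SESN2, a stress-induced regulator of mTORC1 signalling, read 8.88, 8.82 and 8.99 against 8.68, 8.53 and 8.58, also without overlap (0.30, SE 0.07, limma adjusted p 0.219). CHAC1, which degrades glutathione, read 7.75, 7.34 and 7.27 against 7.37, 7.12 and 6.85. Its groups overlapped, with replicate number 1 highest in both, and the paired difference was 0.34 (SE 0.10, limma adjusted p 0.232). Asparagine synthetase ASNS differed by 0.23 (SE 0.09), the folate enzyme ALDH1L2 by 0.24, the lipoprotein receptor VLDLR by 0.21, TRIB3 by 0.19 and ATF4 itself by 0.07. The pro-apoptotic factor DDIT3 was the 1 member below 0, at -0.03. CTH, which makes cysteine and was not in the list, read 8.74, 8.71 and 8.74 against 8.30, 8.06 and 8.36. Its RHOXF2 arrays were nearly equal and all above control (0.49, SE 0.08, limma adjusted p 0.115). The cytosolic aminoacyl-tRNA synthetases had 14 of 17 members above 0 with a median of 0.07, and 11 of 17 with a median of 0.03 after cyclic loess.

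The amino acid response element, searched as TGATGNAA on both strands, was found in 3.89% of all genes of the table and in 4 of the 20 ATF4 targets with a window (ASNS, ATF3, CEBPG and CHAC1). The heat shock element was in none of the 20. The stretches of CHAC1 (chr15:40953222-40953341, plus strand, 249 to 130 bases upstream) and ASNS (chr7:97872409-97872528, minus strand, 120 to 1 bases upstream) are shown as members that carry it, with the motif in capitals, on the opposite strand in CHAC1.
CHAC1: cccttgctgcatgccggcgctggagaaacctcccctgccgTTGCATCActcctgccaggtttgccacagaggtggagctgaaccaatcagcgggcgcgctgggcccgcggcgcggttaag
ASNS: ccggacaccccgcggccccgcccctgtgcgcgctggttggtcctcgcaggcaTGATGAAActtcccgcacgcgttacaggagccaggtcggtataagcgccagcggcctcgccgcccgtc
It starts 209 bases upstream in CHAC1 and 68 in ASNS.

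**Figure D3:**
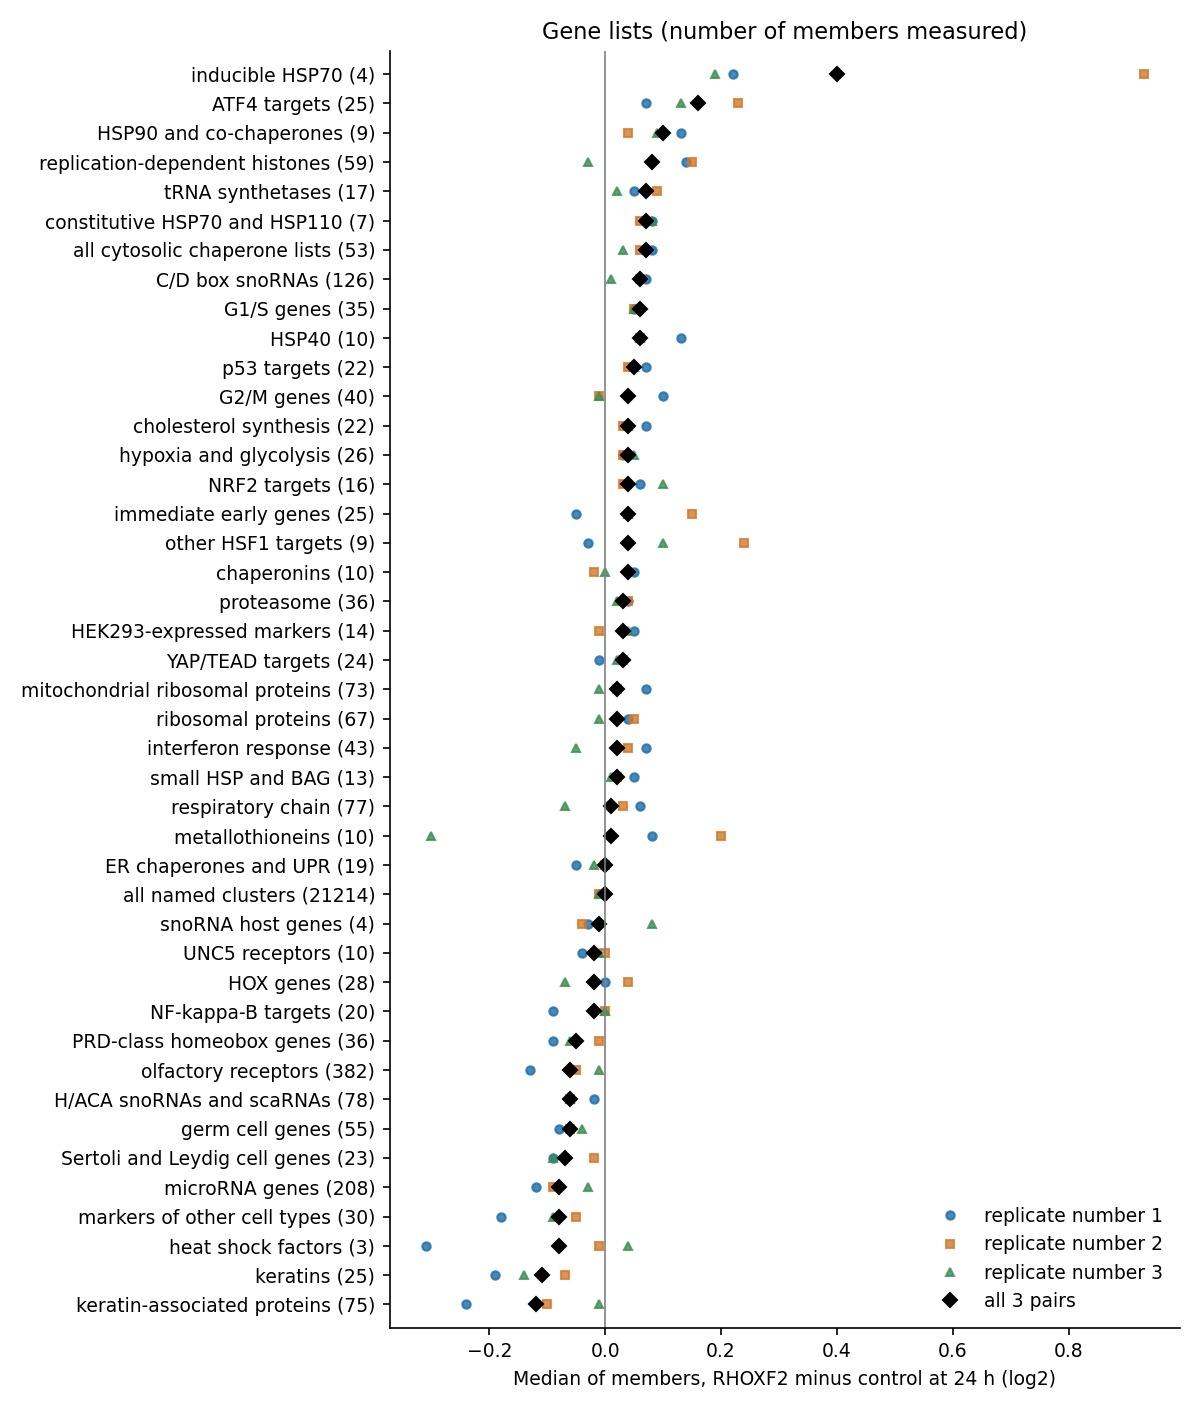
Median log2 difference between RHOXF2 and control at 24 h over the members of each gene list (horizontal axis; number of members in brackets), for each same-number pair and for all 3 pairs. Inducible HSP70 (0.40) and ATF4 targets (0.16) have the highest medians, and keratins (-0.11) and keratin-associated proteins (-0.12) the lowest.

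Most replication-dependent histones lay above control. Most cell cycle genes did too, but so did most clusters of their level. The replication-dependent histones, which are transcribed in S phase, had 45 of 59 members above 0 with a median of 0.08, the same number and median after cyclic loess. Of the 59, 10 had an unadjusted p under 0.05, all higher (16.9%, beside 4.56% of all named clusters). Their median level of 7.86 fell in the third level bin, where 50.3% of clusters were higher and 6.44% were higher at that p. The pair medians were 0.14, 0.15 and -0.03. H2BC7 read 10.18, 9.97 and 9.84 against 9.63, 9.54 and 9.65, without overlap (0.39, SE 0.09, limma adjusted p 0.219). Genes of the G1/S transition had 28 of 35 members above 0 (median 0.06, 0.03 after cyclic loess, with 19 above 0). Their strongest member was the replication licensing factor CDT1, at 10.11, 9.73 and 9.55 against 9.79, 9.02 and 9.35 (0.41, SE 0.10, limma adjusted p 0.219). The groups overlapped, since replicate number 1 was high on both sides. G2/M genes had a median of 0.04, with 25 of 40 above 0 and 21 after cyclic loess. The median levels of the G1/S and G2/M genes, 10.0 and 10.4, fell in the brightest bin, where 68.1% of all clusters were above 0, beside 80.0% and 62.5% of these members.

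Most genes of the reproductive tract and of tissues other than kidney lay below control. Their levels were low, with list medians of 4.85 for germ cell genes, 5.99 for Sertoli and Leydig cell genes, 5.59 for keratins and 4.41 for olfactory receptors, in the bins where most clusters were lower. Of 55 germ cell genes, 16 were higher and 39 lower (median -0.06), and after cyclic loess 26 were above 0 (median -0.01). At an unadjusted p under 0.05, 2 were higher and 8 lower (14.5%), beside 8.83% lower of all clusters and 13.4% of those in the dimmest bin. The share above 0 was 29.1%, and 29.4% in that bin. The sperm chromatin proteins TNP1 and PRM2 and the egg coat protein ZP2 had the smallest p. TNP1 read 4.96, 5.21 and 4.86 against 5.48, 5.42 and 5.34, below control on all 3 arrays, with a difference of -0.40 (SE 0.09, limma adjusted p 0.219). ZP2 differed by -0.27 and PRM2 by -0.23. Sertoli and Leydig cell genes, from the somatic cells of the testis, had 7 of 23 members above 0 (median -0.07, -0.03 after cyclic loess). The Leydig cell hormone INSL3 read 6.61, 6.65 and 6.56 against 7.04, 6.88 and 6.80, a difference of -0.30 without overlap (SE 0.08, limma adjusted p 0.219).

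Homeobox genes of the paired class, to which the RHOX genes belong, had 14 of 36 members above 0 with a median of -0.05, which became 0.00 with 18 above 0 after cyclic loess. The oocyte homeobox gene NOBOX was lowest, at 5.78, 5.88 and 5.74 against 6.13, 6.19 and 6.15 (-0.36, SE 0.07, limma adjusted p 0.209). DRGX differed by -0.32 and GSC2 by -0.24, both without overlap. Netrin receptors of the UNC5 list, with related genes, had 4 of 10 members above 0 and a median of -0.02. The netrin receptor DCC differed by -0.22 (SE 0.08) and NTN4, a netrin, by 0.16 (SE 0.08).

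Keratins had 3 of 25 members above 0 (median -0.11), and 8 of 25 after cyclic loess (median -0.03). KRT23, a type I keratin, was uniform within each group: 4.71, 4.74 and 4.70 against 5.20, 5.20 and 5.23. Each group spanned far less than the gap between them, yet the limma adjusted p was 0.115 (-0.50, SE 0.08). Hair keratin-associated proteins (13 of 75 above 0, median -0.12), olfactory receptors (119 of 382, median -0.06) and microRNA genes (55 of 208, median -0.08) leaned the same way. After cyclic loess their medians were -0.07, -0.02 and -0.04. For markers of other cell types, 6 of 30 were above 0 with a median of -0.08 (-0.05 after cyclic loess). CD14, a monocyte marker, gave 5.50, 5.55 and 5.50 against 6.12, 6.05 and 5.77 (-0.46, SE 0.09, limma adjusted p 0.172).

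Single genes with the smallest p values included several that belong to none of these groups. In the higher direction, the microRNA precursor MIR186 differed by 0.56 (SE 0.10), the zinc finger gene ZFP14 by 0.45 (SE 0.08) and the small nucleolar RNA copy SNORD13P3 by 0.40 (SE 0.07). Each had a limma adjusted p of 0.172 and all 3 RHOXF2 arrays above all controls. In the lower direction, the olfactory receptor OR10S1 read 5.86, 5.85 and 5.55 against 6.40, 6.28 and 6.06 (-0.49, SE 0.07, limma adjusted p 0.105). CES1, a liver carboxylesterase, read 7.28, 6.99 and 7.05 against 7.67, 7.82 and 7.59 (-0.59, SE 0.09, 0.132). For both genes every RHOXF2 array was below every control array. The neural crest factor TFAP2B (-0.46), KIAA1614 (-0.46), LLCFC1 (-0.59), TMEM105 (-0.40) and DIP2C-AS1 (-0.45) were also below control without overlap. DOC2B, a calcium sensor of exocytosis, overlapped between groups and differed by -0.48 (SE 0.07) within pairs. LRRFIP1 entered through a dimmer cluster at -0.44 (SE 0.08), while its brightest cluster read -0.22 (SE 0.16) with overlap.

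**Figure D4:**
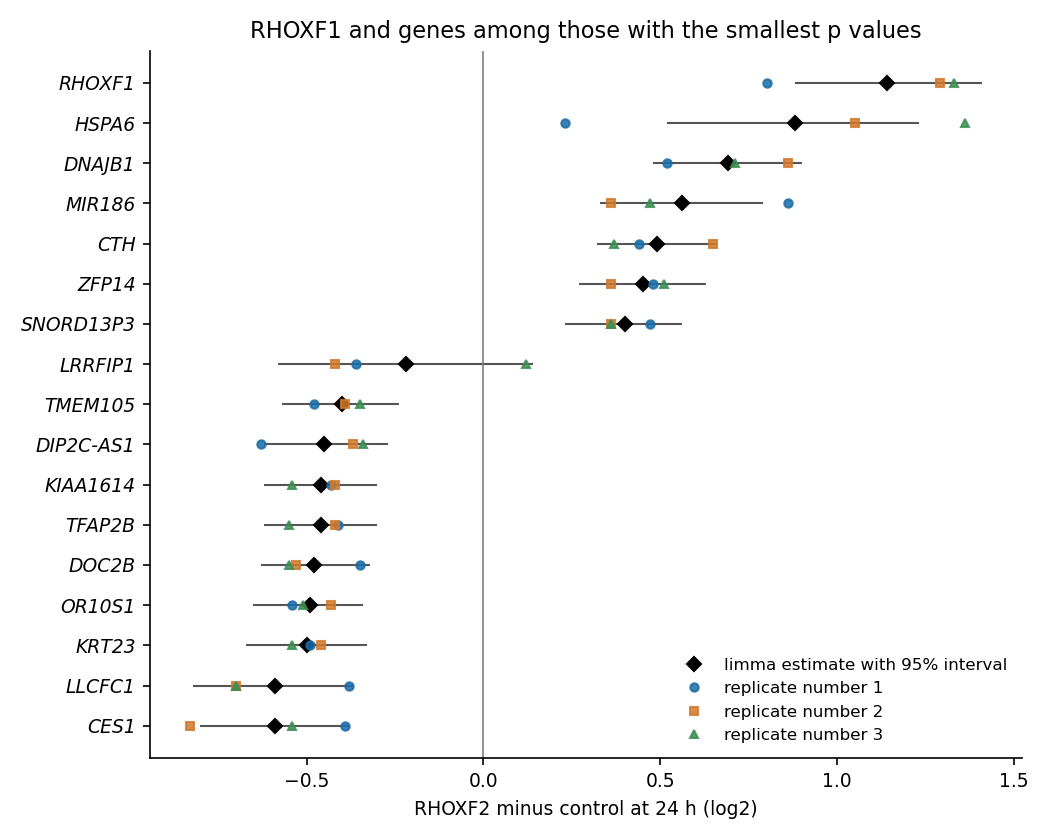
Log2 difference between RHOXF2 and control at 24 h (horizontal axis) for RHOXF1 and genes among those of smallest p (vertical axis); diamonds and lines are limma estimates with 95% intervals, other symbols are the 3 same-number differences. RHOXF1 (1.14) passed the test; in HSPA6 the pair of replicate number 1 (0.23) lies far below the other 2 pairs, and LRRFIP1 is drawn from its brighter probe cluster while its small p came from the dimmer one.

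The direct comparison of RHOXF2 with RHOXF1 arrays at 24 h asks what differs between the 2 transfected genes. Only the transfected genes passed: the RHOXF2 pair of clusters was higher on the RHOXF2 arrays by 6.30 (SE 0.16, limma adjusted p 2.79e-09) and RHOXF1 lower by 4.77 (log2 difference -4.77, SE 0.12, limma adjusted p 2.79e-09). They are 3 of 21214 clusters (0.0141%), and 245 were higher (1.15%) and 500 lower (2.36%) at an unadjusted p under 0.05. HSPA6 read 6.33, 6.94 and 6.82 on the RHOXF1 arrays, and the groups overlapped, since RHOXF1 replicate 2 was above RHOXF2 replicate 1. The difference between the RHOXF2 and RHOXF1 arrays was 0.78 (SE 0.16, 95% interval 0.42 to 1.13, limma adjusted p 0.979). DNAJB1 read 9.46, 10.26 and 9.94 on the RHOXF1 arrays, a difference of 0.05 with an interval of -0.16 to 0.26. SLC7A11 differed by 0.37 (SE 0.09, interval 0.16 to 0.57, limma adjusted p 1).

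Against the control arrays, which both comparisons share, DNAJB1 was at 0.69 with RHOXF2 and 0.64 with RHOXF1. HSPA6 was at 0.88 and 0.10, CTH at 0.49 and 0.20, SLC7A11 at 0.42 and 0.05, and KRT23 at -0.50 and -0.37. The median of the ATF4 targets was 0.16 with RHOXF2 and 0.05 with RHOXF1, and that of inducible HSP70 0.40 and 0.11. Several other lists lay on the same side of control with RHOXF1. Its medians were 0.06 for replication-dependent histones (44 of 59 above 0) and 0.05 for G2/M genes (30 of 40). They were -0.07 for keratins (7 of 25), -0.09 for keratin-associated proteins (15 of 75), -0.05 for olfactory receptors and -0.04 for germ cell genes (20 of 55). Not every list did: C/D box snoRNAs had -0.03 with RHOXF1 and 0.06 with RHOXF2. Between the transfected groups the median of the ATF4 targets was 0.12, with 21 of 25 members higher on the RHOXF2 arrays, beside 9883 of all 21214 named clusters.

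At 48 h, with control arrays of its own, RHOXF2 transfection gave 26 called clusters (0.123%), 18 higher and 8 lower, and chaperones were among them. DNAJB1 rose by 1.57 (SE 0.15, limma adjusted p 0.000151), HSPA6 by 1.98 (SE 0.25, 0.0015) and HSPH1 by 1.12 (SE 0.13, 0.000817). The brightest HSPA1A and HSPA1B cluster rose by 0.68 (SE 0.08, limma adjusted p 0.0013). RHOXF1 also rose, by 1.84 (SE 0.28, limma adjusted p 0.0122). Whether an effect differed between the times was tested directly, and none of these 5 passed: the difference was 0.88 for DNAJB1 (limma adjusted p 0.348), 1.11 for HSPA6 (0.394), 0.90 for HSPH1 (0.311), 0.40 for HSPA1A with HSPA1B (0.385) and 0.70 for RHOXF1 (0.543). The 24 h arrays carry numbers 1 to 9 and the 48 h arrays 16 to 24, so any batch of arrays cannot be told apart from time.

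3 clusters passed the test of the difference between the times (0.0141% of 21214), and 6.14% of clusters were above 0 and 4.06% below 0 at an unadjusted p under 0.05. ANKRD1, a muscle ankyrin repeat protein induced by YAP, read 5.68, 6.40 and 6.27 on the RHOXF2 arrays of 24 h and 5.54, 5.52 and 5.67 on their controls, a difference of 0.54 (SE 0.11, limma adjusted p 0.218) without overlap. At 48 h it was 2.43 (SE 0.18), and the difference of the effects was 1.89 (SE 0.25, limma adjusted p 0.02). RFPL4A, a RET finger protein-like gene, lay below control at 24 h and above it at 48 h. Its levels at 24 h were in the range of the dim bins, where most clusters were lower. At 24 h it read 5.17, 4.97 and 5.13 against 5.43, 5.44 and 5.48 (-0.36, SE 0.09, limma adjusted p 0.219). At 48 h it was 0.92 higher (SE 0.13), a difference of effects of 1.28 (SE 0.18, limma adjusted p 0.0266). After cyclic loess RFPL4A no longer passed (1.20, limma adjusted p 0.1). Another RFPL4A cluster was also called at 48 h but did not pass the test between the times. SNORA38, a guide RNA for rRNA modification, read 7.72, 8.14 and 7.85 against 7.81, 8.16 and 7.85 at 24 h, where the pairs differed by at most 0.09 in size (-0.09). At 48 h it was -0.84 (SE 0.07), which gives a difference of effects of -0.81 (SE 0.11, limma adjusted p 0.02). Without the arrays of any 1 replicate number, none of the 3 passed. The limma adjusted p then was 0.37, 0.43 and 0.0689 for ANKRD1, 0.0795, 0.591 and 0.363 for RFPL4A, and 0.264, 0.591 and 0.345 for SNORA38, for numbers 1, 2 and 3.

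**Figure D5:**
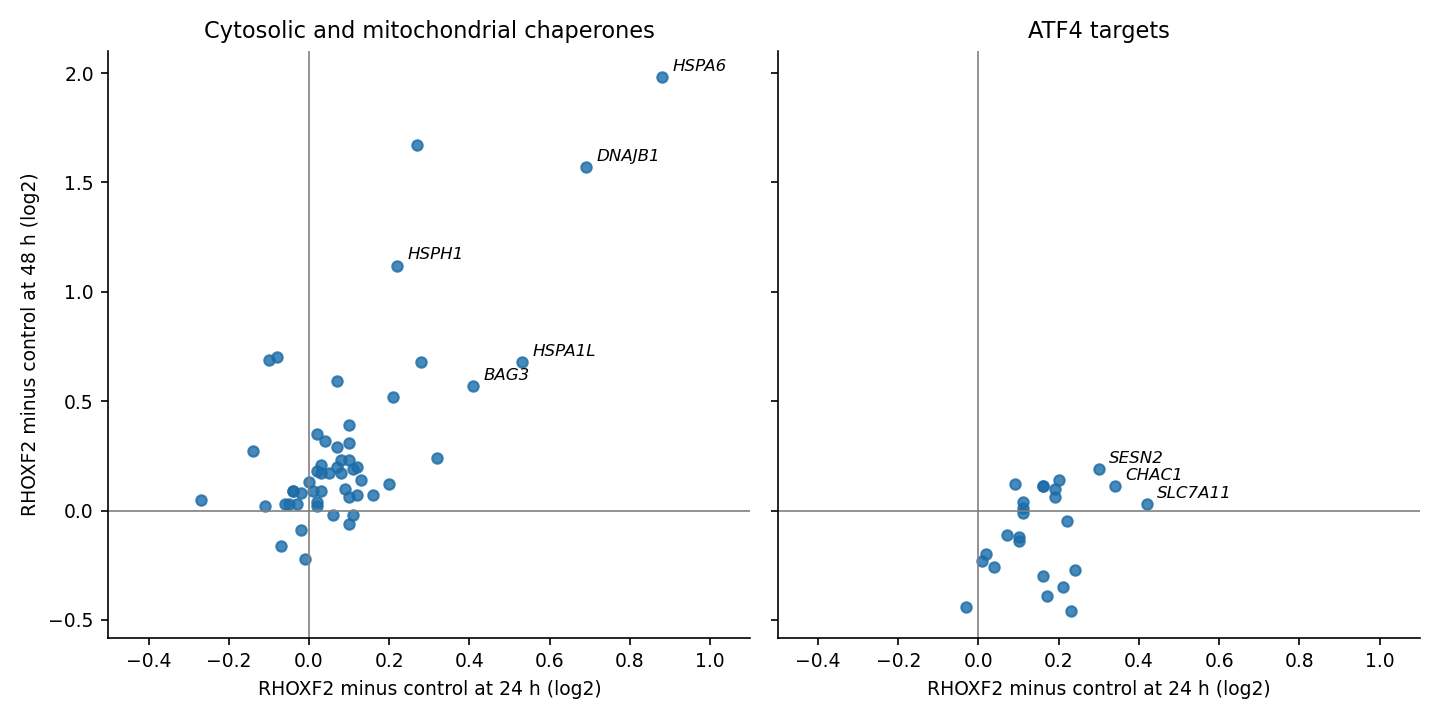
Log2 difference between RHOXF2 and control at 24 h (horizontal axis) and at 48 h (vertical axis, separate control arrays); each point is 1 member of the 6 chaperone lists (left, 53 members) or of the ATF4 targets (right, 25 members). HSPA6 (0.88 and 1.98) and DNAJB1 (0.69 and 1.57) are the chaperones with the highest values at 24 h, and 24 of 25 ATF4 targets lie right of 0 while 11 of 25 lie above 0.

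The gene lists differed in how they compared between the times. Inducible HSP70 had a median of 0.40 at 24 h and 1.18 at 48 h, and all chaperone lists 0.07 and 0.17. The chaperones above 0 numbered 39 and 47 of 53, beside 10349 and 11437 of all 21214 named clusters. The difference of effects of the 53 chaperones had a median of 0.13. At an unadjusted p under 0.05 it was above 0 in 11 of the 53 and below 0 in 0, beside 6.14% and 4.06% of all named clusters. Of the 4 inducible HSP70 members, 3 were among those above 0. None of the chaperones passed that test after adjustment in limma. The ATF4 targets had a median of 0.16 at 24 h and -0.05 at 48 h. The difference of effects of the ATF4 targets was below 0 in 24 of 25 members, with a median of -0.23, beside 9399 of all 21214 named clusters. At an unadjusted p under 0.05, 3 members were below 0, against 4.06% of all clusters. ASNS moved from 0.23 to -0.46 and VLDLR from 0.21 to -0.35. The control arrays of 48 h were spread widely for these genes, as in SLC7A11 at 9.45, 8.17 and 10.51.

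Among the 12083 clusters without a symbol, none passed the test of RHOXF2 against control at 24 h in limma, and 672 were higher (5.56%) and 690 lower (5.71%) at an unadjusted p under 0.05.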

How the data were processed

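Values are log2 RMA levels per transcript cluster as deposited by the authors; per the submitters' processing notes they come from Affymetrix Expression Console 3.1, and the genome build is not given in the sources used here. Symbols came from the platform's probe annotation; 19461 of 33297 clusters carry 1 symbol, 1753 several and 12083 none, and 20133 of 20174 Entrez identifiers matched the RefSeq gene table (GRCh38.p14). Of the named clusters, 703 hold the same values as another.

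Linear models (limma 3.58.1 under R 4.3.3, lmFit and eBayes) covered the 9 arrays of 24 h, with 1 mean per group and the replicate number as a block, which leaves 4 residual degrees of freedom (prior 6.95). Tests were two-sided with Benjamini-Hochberg adjustment over 21214 clusters. The block was set by the design of the comparison, which pairs arrays by replicate number. Correlations of deviations between same-numbered RHOXF2 and control arrays were 0.5, 0.13 and 0.16 for numbers 1, 2 and 3. RHOXF2 number 3 correlated more closely with a control array of another number (0.26). Between RHOXF1 and RHOXF2, number 2 gave 0.06 and unlike numbers up to 0.26. The labels do not state what the number marks. Times were compared over all 18 arrays with the number as a block within each time. The labels call the arrays biological triplicates without naming separate cultures, so p values measure only the spread between these arrays, which may be technical. The number of arrays limits the precision.

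Genes named are RHOXF1, RHOXF2, called clusters (at most 15 per direction), filled to 10 per direction by the smallest p among clusters of 1 symbol whose 3 pairs share a sign, up to 3 members of smallest p from each list, and called clusters of the other comparisons (at most 5 per direction); a gene with several clusters takes the brightest. Other members and CTH's place beside the ATF4 list were described after their values were seen. Members and the 42 gene lists were chosen with earlier results of these data known. Not every list member that the rule selects is named, and 1 gene that the fill selects is not reported here. No dim cluster was removed. Alternatives were other normalizations, blocks, arrays, filters and variance priors, and leaving out arrays. The fit was also run on data simulated from the same model. Such a run cannot show whether the block or the shift with level is modelled correctly.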

Additional observations from a re-analysis of the deposited data

Results flagged for a closer look

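The RHOXF2 effect differed between 48 h and 24 h, by a test of the difference itself, in 3 clusters. For ANKRD1 the effect at 48 h minus that at 24 h was 1.89, for RFPL4A 1.28 and for SNORA38 -0.81 (limma adjusted p 0.02, 0.0266 and 0.02). RFPL4A did not pass after cyclic loess (1.20, limma adjusted p 0.1). The array numbers of the times do not overlap, so a batch of arrays cannot be told apart from time. No group had more than 3 arrays, so single arrays were not tested as outliers.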

How the results depend on the processing

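Of the 3 clusters called at 24 h, 2 remained without the replicate block (the RHOXF2 pair) and RHOXF1 was lost, as it was with all 18 arrays (limma adjusted p 0.354) and unmoderated (0.348). The block changed no other call there, and the comparison with RHOXF1 gave 3 with and without it. The difference between times gave 3 calls both ways, without the block SNORA38 no longer among them (-0.81, limma adjusted p 0.512). At 24 h, array weights gave 5 calls (4 higher, and OR10S1 lower at -0.53), although their convergence tolerance could not be reached. Clusters of 1 symbol gave 1 call, since the RHOXF2 clusters carry 2 symbols. The unmoderated model gave 0 calls (903 higher and 1377 lower at an unadjusted p under 0.05). Leaving out arrays gave 2 to 14 calls at 24 h, 14 of them without replicate 3 and 5 without RHOXF2 replicate 3, 3 to 5 against RHOXF1, and 0 for the times. Filtering to clusters above the median level left 1 call between the times, and cyclic loess left 2, without RFPL4A. HSF5 (-0.08, range -0.17 to 0.04 over the leave-outs) was above 0 without control replicate 1 (0.02) and without replicate 1 (0.04), and SNHG29 (-0.03, range -0.16 to 0.03) under 5 leave-outs: 0.02 without RHOXF2 replicate 1 or 2, 0.01 without control replicate 1, 0.03 without replicate 1 and 0.02 without replicate 2. The cause of these shifts was not tested. Medians over 20 alternatives ran from 0.093 to 0.202 for ATF4 targets, from 0.275 to 0.703 for inducible HSP70 and from -0.139 to -0.015 for keratins. With 3 arrays a group, differences of the size of most values given here did not pass.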

Other observations

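Small nucleolar RNAs, which guide the modification of rRNA, differed from control by small medians at 24 h, of opposite sign in the C/D and H/ACA box lists, and had medians below 0 at 48 h. Of 126 C/D box members, 82 were above 0 at 24 h (median 0.06, also after cyclic loess) and 31 at 48 h (median -0.17). SNORD81 read 9.73, 9.86 and 9.85 against 9.22, 9.49 and 9.56 at 24 h, above control on all 3 arrays (0.39, SE 0.07, limma adjusted p 0.172). Of 78 H/ACA members, 25 were above 0 at 24 h (median -0.06) and 6 at 48 h (median -0.30). Of all 21214 named clusters, 10349 were above 0 at 24 h and 11437 at 48 h. At an unadjusted p under 0.05, 14 C/D box members were higher (11.1%) and 3 lower (2.38%) at 24 h, and 4 H/ACA members were higher (5.13%) and 8 lower (10.3%), beside 4.56% higher and 8.83% lower of all named clusters. None passed after adjustment in limma at 24 h, whereas 1 C/D box and 2 H/ACA members did at 48 h. The difference of effects between the times was below 0 in 96 C/D box and 65 H/ACA members, beside 9399 of all 21214 named clusters. At an unadjusted p under 0.05 it was below 0 in 29 C/D box and 14 H/ACA members, against 4.06% of all clusters. Members of a host gene share a transcript and are not independent.

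Other lists had medians between -0.02 and 0.05 at 24 h. They were 0.02 for cytosolic and for mitochondrial ribosomal proteins, 0.03 for proteasome subunits, 0.01 for the respiratory chain, 0.04 for cholesterol synthesis, for hypoxia and glycolysis and for immediate early genes, 0.02 for the interferon response, -0.02 for NF-kappa-B targets and for HOX genes, 0.05 for p53 targets, 0.04 for NRF2 targets, 0.01 for metallothioneins, 0.03 for YAP/TEAD targets, 0.03 for genes expressed by HEK293, -0.01 for snoRNA host genes and 0.00 for ER chaperones. After cyclic loess these medians lay between -0.04 and 0.05. The sign changed for cytosolic and for mitochondrial ribosomal proteins (both -0.02), the respiratory chain (-0.01), metallothioneins (-0.01) and NF-kappa-B targets (0.03). A median near 0 held members on both sides. The metallothioneins, which bind zinc and copper, gave pair medians of 0.08, 0.20 and -0.30, and their median ran from -0.116 to 0.256 over 20 alternatives. MT1G overlapped between the groups (0.39, SE 0.16, limma adjusted p 0.34). At an unadjusted p under 0.05, 6 of 43 interferon response members and 3 of 16 NRF2 targets were higher and 2 and 1 lower, beside 4.56% higher and 8.83% lower of all named clusters. The p53 target TP53I3 was below control on all 3 arrays (6.22, 6.16 and 6.18 against 6.53, 6.47 and 6.63; -0.36, SE 0.07, limma adjusted p 0.209). The ER degradation factor EDEM1 was above control on all 3 (8.42, 8.28 and 8.12 against 8.03, 7.80 and 7.99; 0.33, SE 0.08, limma adjusted p 0.219).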
